A study of Mus musculus with 80 samples.

Results

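The 44 DNA replication genes described here were taken from the gene expression table of the series by symbol, as a list of genes that license origins, unwind and copy DNA, join the copied fragments and supply deoxynucleotides. All 44 symbols were found among 25965 genes in the table, and all 44 passed the filter on low values that left 11376 genes for testing (a mean of at least 0 on the log2 scale over the 12 libraries). The series followed mouse embryonic stem cells (ESCs) as they lost DNA methylation after a change of medium, and one of its questions was how far replication without maintenance dilutes methylation. RNA-seq was made from wild-type E14 cells, a single ESC line, in serum medium with LIF and at 6, 24 and 72 h after serum was replaced by 2i, with 3 replicates in each of the 4 groups. The 2i medium was serum-free N2B27 with LIF, the MEK inhibitor PD0325901 and the GSK3 inhibitor CHIR99021, so that LIF was present in every group and the loss of serum came together with both inhibitors. H3K9me2, a repressive histone mark, was measured in the same line by ChIP-seq in serum, at 24 h in 2i and in long-term 2i (LT2i), with 2 bound libraries and 1 input in each condition.

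Origins are licensed in G1, when the origin recognition complex (ORC), Cdc6 and Cdt1 load the MCM helicase onto DNA. In S phase Cdc45 and the GINS complex turn the loaded helicase on, primase and polymerase alpha start each strand, and polymerases epsilon and delta extend the strands with the sliding clamp PCNA, which the RFC complex loads. Many of these genes are transcribed at the start of S phase under E2F factors, and ESCs, whose G1 is short, keep them active through much of the cycle. In a bulk sample, fewer cells in S phase and less RNA per cell cannot be told apart.

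Promoter sequences are described first, since they do not depend on the expression values. RefSeq promoter windows on GRCm38.p6, from 250 bases before to 50 bases after an annotated start, were matched for 37 of the 44 genes. The unmatched genes were Pole, Prim2, Gins4, Gins1, Gins2, Mcm4 and Rfc2. The 8-base words TTTCCCGC, TTTGGCGC, TTTCGCGC and TTTGCCGC, common spellings of an E2F-type element, were searched on both strands. At least 1 word was present in 15 of 37 genes, or 40.5%, against 2.61% of 27025 genes in the table of promoters and 5.26% of the 7757 of them that were tested here. A match describes letters in a window and is not a mapped binding site. The holders were Orc1, Orc3, Cdc6, Cdt1, Mcm3, Mcm5, Mcm6, Mcm7, Gins3, Pola1, Pold1, Pold3, Pole2, Rfc3 and Lig1, so 4 of the 5 matched MCM helicase genes carried a word while no nucleotide supply or single-strand binding gene did. The windows below are those of holders among the genes with full values in this text, printed 5′ to 3′ on the strand of the gene, with the words in capitals.
Mcm5 (chr8:75109347-75109376, plus strand): gccaagaacTTTCGCGCCAAAacgtccagc
Mcm6, upper word pair (chr1:128359795-128359824, minus strand): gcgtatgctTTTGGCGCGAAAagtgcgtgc
Mcm6, word near the start (chr1:128359736-128359761, minus strand): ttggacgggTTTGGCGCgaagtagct
Cdc6 (chr11:98908004-98908029, plus strand): cggtggagaGCGGGAAAtcgcctggg
Orc1 (chr4:108579418-108579443, plus strand): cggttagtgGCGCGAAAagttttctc
Gins3 (chr8:95633509-95633534, plus strand): gagtgcggcGCGGGAAAgcgagtttg
Pold3 (chr7:100121469-100121494, minus strand): gcgaagctgTTTCCCGCcggcgggag
Lig1 (chr7:13278843-13278868, plus strand): ccaaagtgcGCGCGAAAtctgtgtgg

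In Mcm5 and Mcm6 a pair of words overlapped, reading TTTCGCGCCAAA and TTTGGCGCGAAA, so that each stretch matched on both strands. The words began 153 bases before the start in Mcm5, 110 and 47 bases before it in Mcm6, 138 before it in Cdc6 and 27 before it in Orc1, and lay within the first 50 transcribed bases in Pold3 and Lig1. The 250 bases upstream of Mcm5 and of Rrm2 are shown in full as an example of a promoter with and without the words.
Mcm5 upstream (chr8:75109259-75109508, plus strand): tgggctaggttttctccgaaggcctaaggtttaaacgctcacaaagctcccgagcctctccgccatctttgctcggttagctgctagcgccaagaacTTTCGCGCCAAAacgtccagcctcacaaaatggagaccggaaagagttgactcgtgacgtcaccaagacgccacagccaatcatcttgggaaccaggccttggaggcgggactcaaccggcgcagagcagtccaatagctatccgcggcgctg
Rrm2 upstream (chr12:24708004-24708253, plus strand): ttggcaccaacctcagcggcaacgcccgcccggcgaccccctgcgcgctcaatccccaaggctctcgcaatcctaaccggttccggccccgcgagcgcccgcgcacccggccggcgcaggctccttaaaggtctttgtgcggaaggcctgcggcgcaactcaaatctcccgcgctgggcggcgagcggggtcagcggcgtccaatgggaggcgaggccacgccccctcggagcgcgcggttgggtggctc

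Other short words set these genes apart less, or not at all. The CCAAT box (CCAAT) was found in 23 of 37 replication genes against 44.3% of the tested genes, and the GC box (GGGCGG) in 28 against 71.9%. The TATA word (TATAAA) was found in 3 genes against 8.10%. The CHR word (TTTGAA), known from promoters of mitotic genes, was found in 5 of 37 replication genes against 13.8% of the tested genes, and in 15 of 21 matched genes of a mitosis list. The E2F-type words showed the reverse, with 1 of the same 21 mitosis genes and 8 of 26 matched genes from a list of other replication factors. Replication windows had a median GC content of 60.0% against 52.7% for all windows, which can raise the count of GC-rich words.

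**Figure D1:**
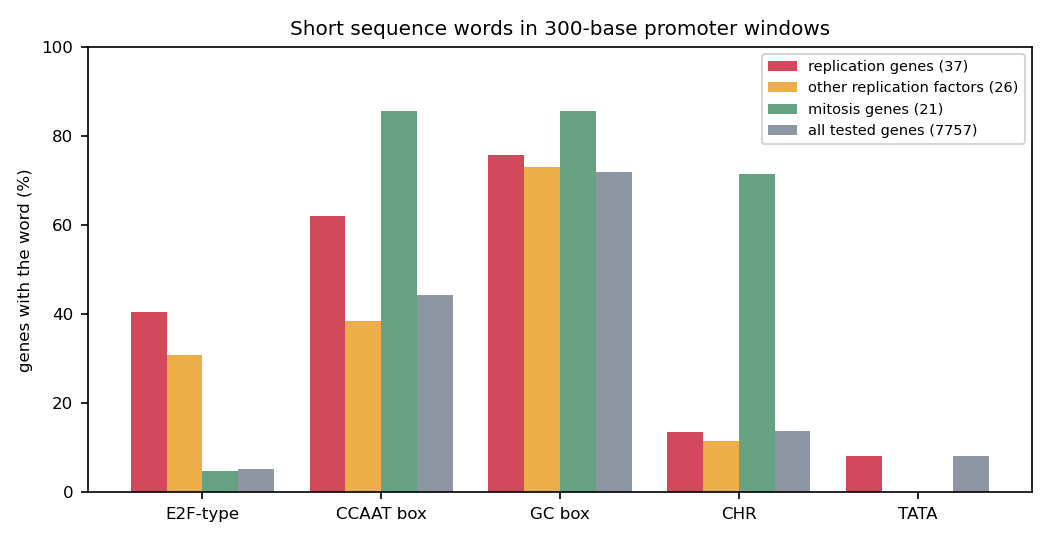
Percent of genes (vertical axis) with at least 1 copy of each short word (horizontal axis) in a 300-base RefSeq promoter window, on either strand, for the replication genes, other replication factors, mitosis genes and all tested genes, with the number of matched genes in the key. E2F-type words were found in 40.5% of the replication genes and 5.26% of the tested genes, while the CHR word was found in 15 of 21 mitosis genes.

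Expression values were the authors' log2 values, which take account of gene length and depth and share a 75th percentile of 2.51 in all libraries. In serum the highest means among the 44 genes were those of the MCM helicase subunits, from 6.80 ± 0.03 for Mcm2 to 6.11 ± 0.07 for Mcm7 (SD, n = 3), followed by Pcna at 6.05 ± 0.14. The order within the ring was Mcm2, Mcm3, Mcm5, Mcm6, Mcm4 and Mcm7. The libraries of neighbours overlapped for Mcm2 and Mcm3, for Mcm5 and Mcm6 and for Mcm4 and Mcm7. Subunits of other complexes lay much farther apart. ORC subunits ran from 5.14 ± 0.24 for Orc2 to 2.41 ± 0.14 for Orc4, GINS subunits from 5.12 ± 0.18 for Gins4 to 2.10 ± 0.10 for Gins3, and RFC subunits from 5.17 ± 0.08 for Rfc2 to 2.97 ± 0.25 for Rfc3. No source names the gene lengths that entered the values, so these orders rest on the authors' correction. All 10 ESC markers passed the filter in these libraries. Only 2 of 7 fibroblast markers, 1 of 7 primitive endoderm markers and 2 of 7 trophoblast markers did so.

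Libraries differed along gene span, the distance from start to end of a gene, and that difference touches several results below. Replicate 3 of every group deviated from its group mean upwards for long genes, with a Spearman rho across 11376 genes of 0.23 for serum, 0.22 for 6 h, 0.47 for 24 h and 0.44 for 72 h. Genes are not independent replicates, and the rho values are descriptions. Replicate 1 at 72 h went the same way (0.30) and the other 7 libraries went the opposite way (-0.51 to -0.08). At 24 h the change against serum itself followed span, with a rho of -0.34 over all tested genes and -0.32 over the 44 genes. The median change was 0.53 in the 2276 shortest genes (up to 6.21 kb) and -0.41 in the 2276 longest (from 57.9 kb). Every change was therefore also fitted with a smooth span trend taken out of each library, and that value is given beside each result whose call it changes, each called change it moves by over 1.5 times and some others.

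**Figure D2:**
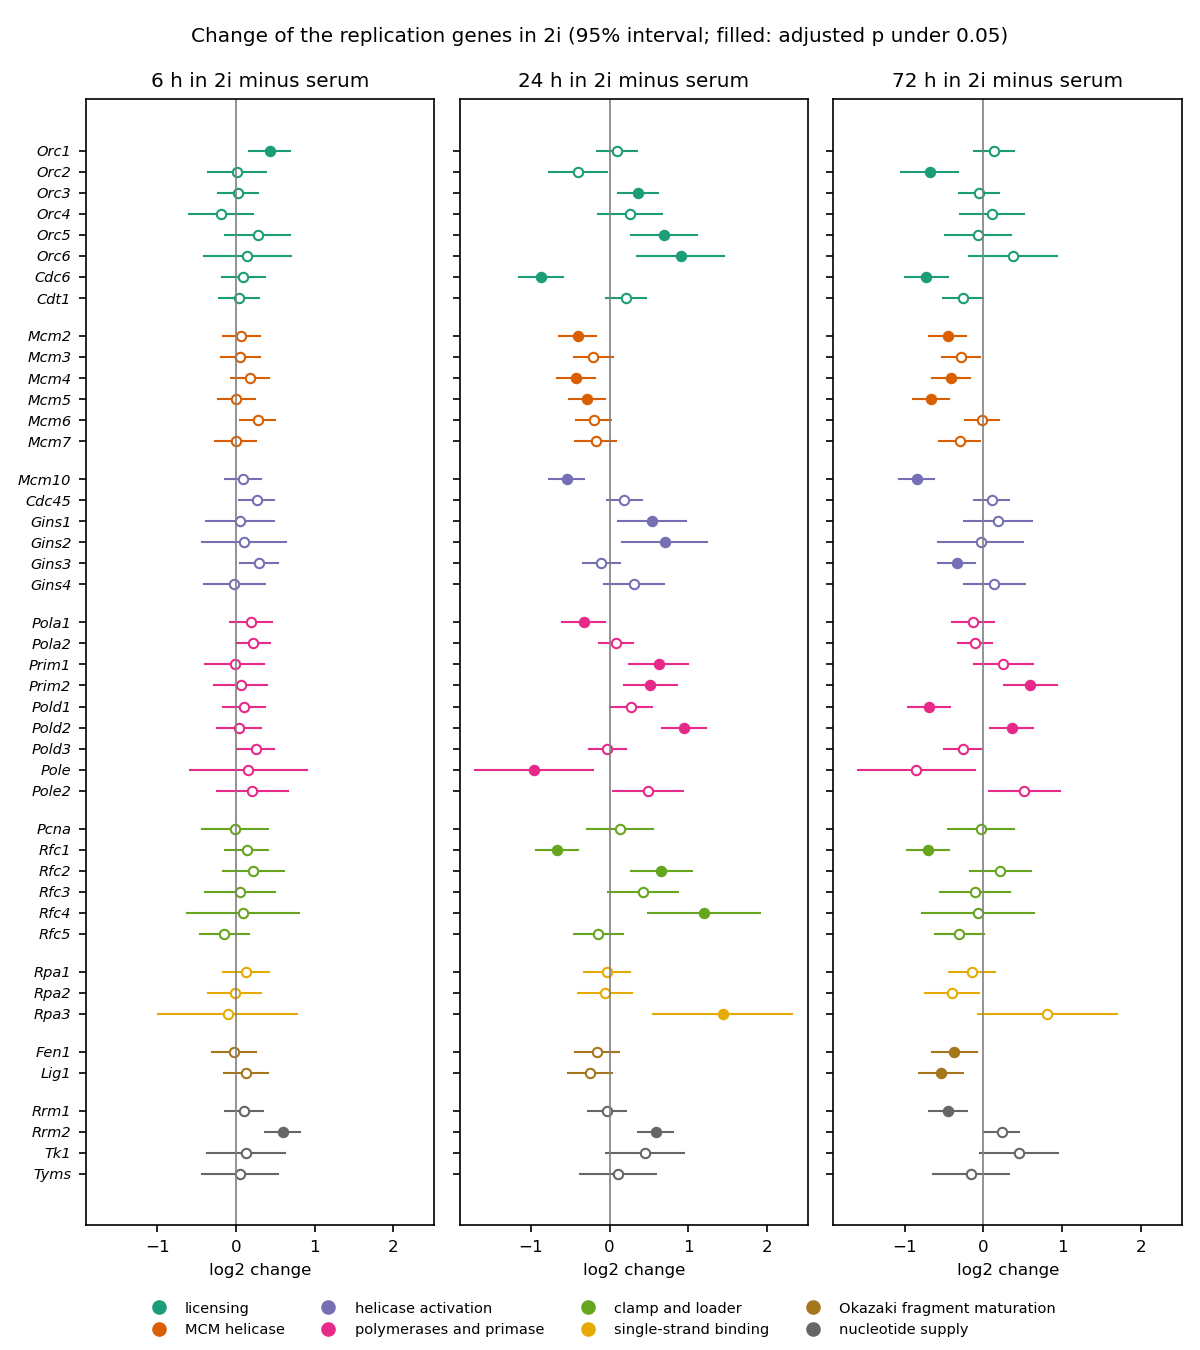
Log2 change of each of the 44 replication genes (vertical axis, coloured by role) at 6, 24 and 72 h in 2i minus serum (horizontal axes), with 95% intervals and filled points for an adjusted p under 0.05 by limma. At 6 h 2 points are filled, at 24 h 12 lie filled to the right and 8 to the left of 0, and at 72 h 2 lie to the right and 12 to the left.

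Calls among the replication genes were few at 6 h, in both directions at 24 h and mostly lower at 72 h, and at each time a smaller share of them passed than of all tested genes. With limma and Benjamini-Hochberg adjustment over all 11376 genes, 2 of 44 changed at 6 h, both higher, against 14.3% of all tested genes, or 8.26% for higher calls. At 24 h 20 changed, 12 higher and 8 lower, against 62.6% of all tested genes, of which 33.6% were higher and 29% lower. At 72 h 14 changed, 2 higher and 12 lower, against 50.3%, of which 24.5% were higher and 25.8% lower. The 12 lower genes at 72 h were 27.3% of the 44, a share near that of all tested genes. The median change of the 44 genes at 6, 24 and 72 h was 0.10, 0.10 and -0.12, where the medians of all tested genes were 0.01, 0.10 and -0.01. The median size of change without regard to sign was 0.35 at 24 h and 0.29 at 72 h, against 0.58 and 0.45 for all tested genes. A change of at least 1 was called for Rpa3 and Rfc4 at 24 h and for none of the 44 genes at 72 h, when 2036 of the tested genes had one. The 3 comparisons share the same serum libraries. At 6 h all libraries lay above all of serum for 13 of the 44 genes, against 23.5% of tested genes, and below it for 0, against 20.3%. At 24 h they lay above for 13 and below for 11, against 33.8% and 30.4% (64.2% for either). At 72 h they lay above for 7 and below for 19, against 30.5% and 32% (62.5% for either).

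The calls differed in how far they rested on single libraries. When each of the 12 libraries was left out in turn, 1 of the 2 calls at 6 h, 13 of the 20 at 24 h and 11 of the 14 at 72 h held in every fit. The share of calls among all tested genes that held in every fit was not computed. The counts of held calls are therefore not read as particular to the replication genes. The 24-h calls that held were Orc5, Orc6, Prim1, Pold2, Rfc2, Rfc4, Rpa3 and Rrm2 (higher) and Cdc6, Mcm2, Mcm4, Mcm10 and Rfc1 (lower). Those at 72 h were Prim2 (higher) and Orc2, Cdc6, Mcm2, Mcm4, Mcm5, Mcm10, Pold1, Rfc1, Lig1 and Rrm1 (lower). Without 24 h replicate 3 the higher calls at 24 h went from 12 to 19 (39.8% of all tested genes), and the calls at 72 h from 14 to 22 (57.9%), of which 6 were higher (28.5%). Without serum replicate 2 the lower calls at 24 h went from 8 to 5 (26% of all tested genes). The higher calls at 72 h went from 2 to 1 without any of the serum replicates, without 72 h replicate 1 or without 72 h replicate 2. Without the third library of every group, a choice made after the data were seen, 18 genes were higher and 7 lower at 24 h, against 39.3% and 30.9% of all tested genes in that fit, and 5 were higher and 12 lower at 72 h, against 28.6% and 28.5%.

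Removal of the span trend changed calls at each time. At 6 h it left 1 of the 2 calls, Rrm2. At 24 h 23 of the 44 genes passed, 16 higher and 7 lower, against 62.6% of all tested genes (36.6% higher and 26% lower). Of the 20 calls without that correction 17 held, Pola1, Pole and Rfc1 were lost, and Orc4, Mcm7, Cdc45, Pold3, Pole2 and Fen1 were gained. At 72 h all 14 calls held and 6 were added, Cdt1, Mcm3, Mcm7, Pole, Rfc5 and Rpa2, each of them lower, so that 2 genes were higher and 18 lower against 26.1% and 27.3% of all tested genes. The median change of the 44 genes was then 0.23 at 24 h and -0.14 at 72 h, where the medians of all tested genes were 0.13 and -0.01.

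Among the licensing genes, Orc3, Orc5 and Orc6 rose at 24 h, Cdc6 fell at 24 and 72 h and Orc2 fell at 72 h. At 6 h 1 of 8 licensing genes rose (8.26% of all tested genes did), at 24 h 3 rose and 1 fell (33.6% and 29%), and at 72 h 2 fell (25.8%). Orc1, the subunit whose level follows the cell cycle in many cells, had values of 4.37, 4.35 and 4.07 in serum and 4.77, 4.79 and 4.51 at 6 h. Every 6-h library lay above every serum library, with replicate 3 the lowest of both groups. The change was 0.43 ± 0.12 (SE; limma, adjusted p = 0.032), and the call was lost when any of 6 single libraries was left out: each serum replicate, 6 h replicate 1, 6 h replicate 2 or 72 h replicate 1. It was also lost with the span trend taken out, at 0.42 (adjusted p = 0.058). Orc1 was 0.09 from serum at 24 h (95% interval -0.16 to 0.35) and 0.13 at 72 h (-0.12 to 0.39).

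Orc6, a small ORC subunit needed for MCM loading, had values of 5.10, 5.12 and 4.75 in serum and 6.45, 5.89 and 5.33 at 24 h. The groups did not overlap, but 24 h replicate 3 lay near the serum values and 24 h replicate 1 far above them. The change was 0.90 ± 0.25 (adjusted p = 0.0094 by limma), and at 72 h the difference of 0.38 did not pass (adjusted p = 0.24). Orc5 (0.69) and Orc3 (0.36) also rose at 24 h, and differed from serum by -0.07 and -0.06 at 72 h. Their 24-h changes were larger without the span trend, at 1.13 for Orc5 and 0.67 for Orc3. The call of Orc3 was lost without serum replicate 3 or 24 h replicate 1. Orc2 went the other way, with a difference of -0.41 at 24 h that did not pass and a change of -0.68 at 72 h that did. The 24-h difference of Orc2 was -0.11 after removal of the span trend. It shares 19046 bases of its span with Nif3l1 on the opposite strand, whose reads cannot be told apart from its own without strand. Orc4 differed from serum by -0.19 to 0.26 with no call at any time, but its 24-h difference became 0.60 and passed without the span trend (adjusted p = 0.044 by limma).

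Cdc6, which joins ORC to load the helicase and is removed and remade in each cycle, showed the clearest fall of the licensing genes. Its serum values were 3.43, 3.41 and 3.54, and its 24-h values 2.41, 2.64 and 2.70. At 72 h it stood at 2.89, 2.49 and 2.82. All 6 later libraries lay below all 3 of serum, with little spread at 24 h. The change was -0.87 ± 0.13 at 24 h (limma, adjusted p = 0.00015) and -0.73 ± 0.13 at 72 h (adjusted p = 0.00061), or 1.83 and 1.66 times lower. At 6 h it differed from serum by 0.10 with no call. With the span trend removed the changes at 24 and 72 h were -0.90 and -0.74. Cdt1, its partner in loading, showed no call against serum, at 0.21 at 24 h and -0.26 at 72 h. After removal of the span trend these values were -0.06 and -0.37, and the second passed (adjusted p = 0.021 by limma).

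**Figure D3:**
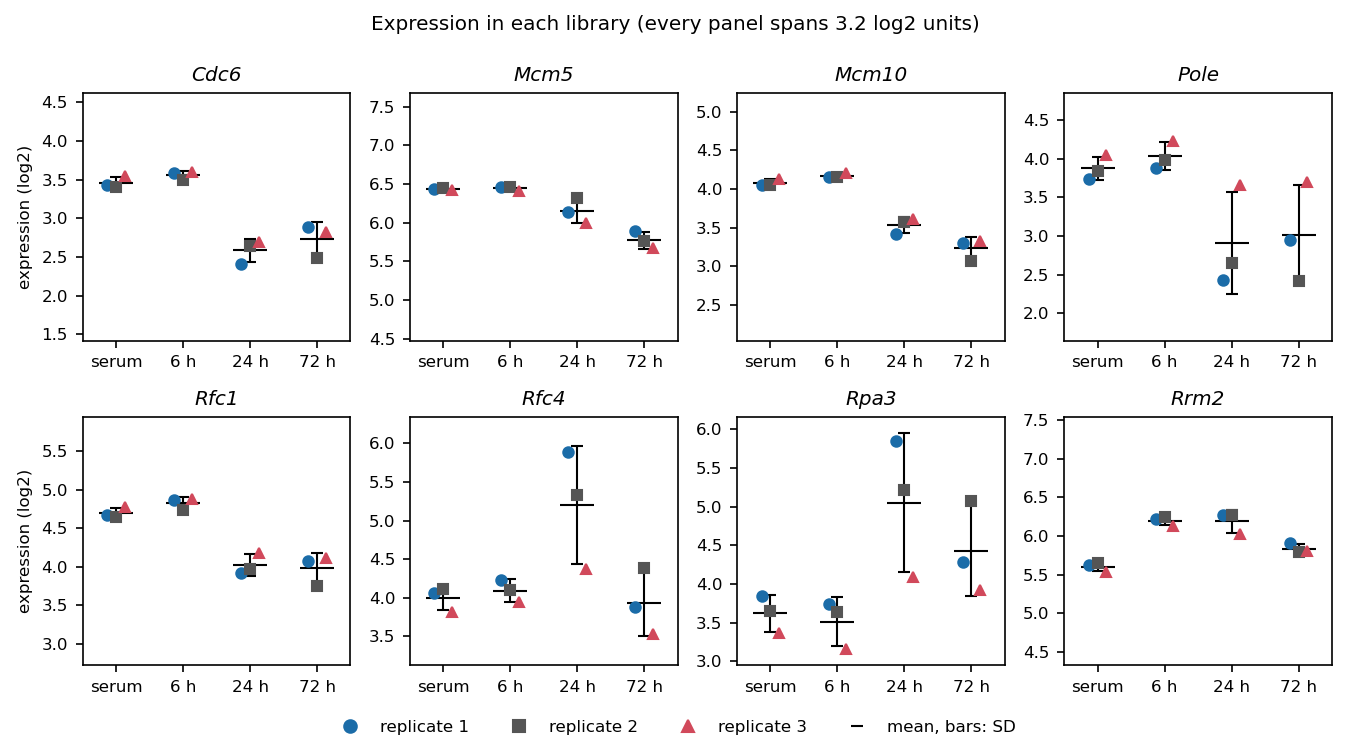
Log2 expression (vertical axes, each spanning 3.2 units) of 8 replication genes in the 3 libraries of serum and of 6, 24 and 72 h in 2i, with the mean and SD in black. Cdc6, Mcm10 and Rfc1 lie below serum in all libraries at 24 and 72 h, while Rfc4, Rpa3 and Pole spread widely at 24 h, with replicate 3 the closest to serum.

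The 6 MCM helicase genes, which encode the ring that unwinds the fork, all had mean values below serum at 24 and 72 h. For Mcm6 at 72 h the difference was only -0.02, with libraries on both sides of serum. It stood at 0.02 at that time when the span trend was removed. At both times 3 of the 6 passed the test, Mcm2, Mcm4 and Mcm5, and none passed at 6 h. All of these calls were lower. The share of 50% stands against lower calls for 29% of all tested genes at 24 h and 25.8% at 72 h. Calls in either direction made up 62.6% and 50.3%. Mcm4 had values of 6.13, 6.10 and 6.22 in serum, 5.64, 5.72 and 5.80 at 24 h and 5.90, 5.52 and 5.81 at 72 h. The later libraries were all below serum. Mcm4 fell by 0.43 (SE 0.11, adjusted p = 0.0061 by limma) at 24 h and by 0.41 at 72 h (adjusted p = 0.0096). The 72-h call was lost with quantile normalization of the libraries.

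Mcm5 was the tightest of the ring genes in serum, at 6.44, 6.45 and 6.42. It read 6.13, 6.31 and 6.00 at 24 h and 5.89, 5.76 and 5.67 at 72 h, so that the time points formed steps that did not overlap. The change was -0.29 ± 0.11 at 24 h (limma, adjusted p = 0.032), which was lost when 24 h replicate 1, 24 h replicate 3 or any serum library was left out. At 72 h it was -0.67 ± 0.11 (adjusted p = 0.00033), and 72 h lay 0.38 below 24 h (adjusted p = 0.021 for that difference). Mcm2 changed by -0.41 and -0.45 at the same times. Mcm3 (-0.21 and -0.29) and Mcm7 (-0.18 and -0.30) had no call at either time, and their 72-h intervals, -0.53 to -0.04 and -0.57 to -0.04, lay below 0 before adjustment. Without the span trend Mcm7 passed at both times, at -0.36 at 24 h (adjusted p = 0.0067 by limma) and -0.36 at 72 h (adjusted p = 0.0071), and Mcm3 passed at 72 h, at -0.30 (adjusted p = 0.036).

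Mcm6 was the member of the ring that stood closest to serum at 72 h. Its values were 6.39, 6.33 and 6.45 in serum, 6.70, 6.66 and 6.65 at 6 h, 6.09, 6.31 and 6.17 at 24 h and 6.50, 6.33 and 6.29 at 72 h. The 6-h libraries were higher than all others of this gene. No difference from serum passed, at 0.28 ± 0.10 at 6 h (limma, adjusted p = 0.096), -0.20 at 24 h (adjusted p = 0.095) and -0.02 at 72 h (95% interval -0.24 to 0.20). The 24-h difference was -0.09 once the span trend was removed. The step from 6 to 24 h was -0.48 (adjusted p = 0.0021 by limma). Its size does not use the serum libraries, but they enter the spread behind its p-value. For Mcm4 the same step was -0.61 and for Mcm2 it was -0.48, both past the test.

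Helicase activation genes, whose proteins turn the loaded ring into a moving helicase, gave calls in both directions at 24 h. At that time 2 of 6 rose and 1 fell, against 33.6% and 29% of all tested genes, and at 72 h 2 fell, against 25.8%. Mcm10, which acts at helicase activation and is distinct from the ring, had values of 4.06, 4.06 and 4.13 in serum. It fell to 3.42, 3.57 and 3.62 at 24 h and to 3.30, 3.07 and 3.33 at 72 h, with no overlap between serum, 24 h and 72 h. The change was -0.55 ± 0.10 at 24 h (limma, adjusted p = 0.00092) and -0.85 ± 0.10 at 72 h (adjusted p = 4.9e-05), the latter the smallest adjusted p of the 44 genes at that time. Removing the span trend left -0.51 and -0.85.

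The 4 GINS genes encode a complex with one copy of each subunit, and their changes differed. Gins2 had values of 2.87, 2.77 and 2.54 in serum, 3.74, 3.65 and 2.88 at 24 h and 2.48, 3.17 and 2.43 at 72 h. At 24 h replicates 1 and 2 stood well above serum and replicate 3 at the top of the serum range. The change of 0.70 ± 0.24 at 24 h passed (adjusted p = 0.027 by limma), but was lost without 24 h replicate 1 or 24 h replicate 2 and without serum replicate 2 or serum replicate 3. At 72 h the difference was -0.04. Gins1 rose by 0.54 at 24 h, where its libraries at 4.90, 4.53 and 4.01 touched the serum range, a call that was lost when any single serum replicate, 24 h replicate 1 or 24 h replicate 2 was left out. Gins4 differed by 0.31 with no call.

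Gins3, the lowest of the 44 genes in serum at 2.01, 2.20 and 2.07, had values of 2.57, 2.33 and 2.26 at 6 h and 1.75, 1.81 and 1.69 at 72 h. The 6-h libraries lay above serum and those of 72 h below it. The difference of 0.29 ± 0.11 at 6 h did not pass (limma, adjusted p = 0.11), and the change of -0.34 ± 0.11 at 72 h did (adjusted p = 0.022), though not without serum replicate 2, 72 h replicate 1 or 72 h replicate 3. Cdc45 had no call, with differences of 0.27, 0.19 and 0.11 in order of time, but at 24 h it stood at 0.35 and passed without the span trend (adjusted p = 0.0076 by limma). Gins2 lies within the span of the predicted gene Gm20388 on the opposite strand, as Cdt1 does on the same strand, and the library kit does not mark strand, so reads of these genes cannot be told apart from those of Gm20388.

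Polymerase and primase genes gave calls in both directions. At 24 h 3 of 9 rose and 2 fell, where 33.6% and 29% of all tested genes did so, and at 72 h 2 rose and 1 fell, where 24.5% and 25.8% did. Pole, the catalytic subunit of the leading-strand polymerase epsilon, had values of 3.74, 3.83 and 4.04 in serum, 2.43, 2.65 and 3.66 at 24 h and 2.95, 2.41 and 3.69 at 72 h. Replicate 3 was the highest library of this 51.2-kb gene in every group and stood close to the serum values at 24 and 72 h. The change was -0.96 ± 0.34 at 24 h (adjusted p = 0.028 by limma) and -0.85 ± 0.34 at 72 h, which did not pass (adjusted p = 0.055). The 24-h call was lost when serum replicate 2, serum replicate 3, 24 h replicate 1 or 24 h replicate 2 was left out. The 72-h difference of Pole was -0.55 without 72 h replicate 2 and -1.19 without 72 h replicate 3, of which the latter passed (adjusted p = 0.0097 by limma). Unchanged at -0.85, it also passed by limma without 24 h replicate 1 (adjusted p = 0.043) or 24 h replicate 3 (adjusted p = 0.014). With the span trend removed the 24-h change was -0.59 and no longer passed (adjusted p = 0.073), while that of 72 h was -0.73 and passed (adjusted p = 0.039). The accessory subunit Pole2 differed by 0.49 and 0.52 with no call, opposite in sign to Pole at both times, and its 24-h value was 0.58 and passed after removal of the span trend (adjusted p = 0.035 by limma).

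Both primase genes, which make the RNA primers, rose at 24 h, Prim1 by 0.62 and Prim2 by 0.51, and Prim2 was still 0.59 above serum at 72 h. The 24-h change of Prim2 was 1.07 without the span trend, and its call at that time was lost without serum replicate 3. Pola1, the catalytic subunit that extends those primers, changed by -0.33 at 24 h, a call lost when any single serum replicate or 24 h replicate 2 was left out. Its span of 327 kb is the longest of the 44 genes, and without the span trend its difference was 0.23 with no call. For polymerase delta, Pold2 rose from 5.17, 5.03 and 5.16 in serum to 6.08, 6.24 and 5.88 at 24 h and 5.55, 5.61 and 5.27 at 72 h, changes of 0.94 and 0.36. The 72-h call was lost when any single serum replicate, 72 h replicate 1 or 72 h replicate 2 was left out. The 24-h and 72-h libraries all stood above serum. Pold1, the catalytic subunit, had values of 4.05, 4.03 and 4.29 in serum, 4.32, 4.60 and 4.27 at 24 h and 3.44, 3.38 and 3.48 at 72 h. It was at or above the serum level at 24 h and well below it at 72 h, with a change of -0.69.

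Pold3, the delta subunit with the largest difference in this role at 6 h, had values of 3.62, 3.61 and 3.49 in serum and 3.88, 3.80 and 3.79 at 6 h. The groups did not overlap, and the difference of 0.25 ± 0.11 did not pass (limma, adjusted p = 0.17). It was -0.03 at 24 h and -0.26 at 72 h, again without a call. Removal of the span trend turned the 24-h value to 0.24, which passed (adjusted p = 0.046 by limma), and left -0.17 at 72 h with no call.

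The clamp loader subunits changed in both directions, from -0.67 for Rfc1 to 1.20 for Rfc4 at 24 h. At that time 2 of the 6 clamp and loader genes rose and 1 fell, beside 33.6% and 29% of all tested genes, and at 72 h 1 fell, beside 25.8%. Rfc1, the large subunit particular to the replicative loader, had values of 4.67, 4.64 and 4.77 in serum. Its values were 3.92, 3.97 and 4.18 at 24 h and 4.08, 3.76 and 4.12 at 72 h, all below serum. The change was -0.67 ± 0.12 at 24 h (limma, adjusted p = 0.00073) and -0.71 ± 0.12 at 72 h (adjusted p = 0.0006). Rfc1 spans 73.8 kb, and with the span trend removed it stood at -0.19 at 24 h, which did not pass (adjusted p = 0.065), and at -0.56 at 72 h, which did (adjusted p = 0.00019).

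Rfc4, a small subunit of the same complex, rose from 4.06, 4.11 and 3.82 in serum to 5.89, 5.33 and 4.38 at 24 h, and stood at 3.88, 4.38 and 3.53 at 72 h. The 24-h libraries were above serum but far apart from each other, and the 72-h libraries were on both sides of serum. The change was 1.20 ± 0.32 at 24 h (adjusted p = 0.0076 by limma) and -0.07 ± 0.32 at 72 h (95% interval -0.78 to 0.64). Rfc2 had values of 5.26, 5.11 and 5.14 in serum, 5.44, 5.36 and 5.38 at 6 h and 6.06, 6.00 and 5.42 at 24 h. All 24-h libraries stood above serum, replicate 3 by the least. The change at 24 h was 0.66 ± 0.18 (limma, adjusted p = 0.0075), and the difference at 6 h was 0.22 with no call. Rfc3 (0.43 and -0.10), Rfc5 (-0.14 and -0.31) and Pcna (0.13 and -0.03) had no call at 24 or 72 h. Without the span trend Rfc5 passed at 72 h, at -0.32 (adjusted p = 0.040 by limma), and Pcna stood at -0.17 at 24 h and -0.16 at 72 h with no call. RefSeq lists pseudogenes of Pcna and Tyms, whose reads the counting could have split. Rfc4 shares 194 bases of its span with Eif4a2 on the opposite strand, which could not be separated without strand.

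The single-strand binding protein RPA has a large, a middle and a small subunit, of which only the small one passed the test, at 24 h. That was 1 of 3 genes, where 33.6% of all tested genes rose. At 72 h 0 of 3 passed, where 24.5% rose and 25.8% fell. Rpa3, the small subunit, had values of 3.85, 3.65 and 3.36 in serum and 3.75, 3.64 and 3.16 at 6 h. It stood at 5.85, 5.22 and 4.09 at 24 h and at 4.29, 5.07 and 3.93 at 72 h. All libraries of 24 and 72 h were above serum, and those of 24 h were spread widely. The change was 1.43 ± 0.40 at 24 h (adjusted p = 0.0096 by limma), 2.70 times higher and the largest of the 44 genes. At 72 h the difference of 0.81 ± 0.40 did not pass (adjusted p = 0.12). It was 0.49 without 72 h replicate 2, and it passed without 24 h replicate 3 (adjusted p = 0.029 by limma). At 3.24 kb Rpa3 is the shortest of the 44 genes, and without the span trend the 24-h change was 1.11 (adjusted p = 0.0092 by limma). It was then below the changes of Rfc4 (1.16) and Orc5 (1.13). Rpa1, the large subunit, had values of 5.53, 5.56 and 5.49 in serum and 5.71, 5.65 and 5.62 at 6 h, and then 5.59, 5.69 and 5.20 at 24 h. The 24-h libraries reached from below to above serum. No difference passed, at 0.13 at 6 h, -0.03 at 24 h (95% interval -0.32 to 0.25) and -0.15 at 72 h. The 24-h value of Rpa1 was 0.33 after removal of the span trend (adjusted p = 0.15 by limma). Rpa2, the middle subunit, differed by -0.06 and -0.40 at 24 and 72 h with no call, and the 72-h value was -0.42 and passed with the span trend taken out (adjusted p = 0.015 by limma).

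**Figure D4:**
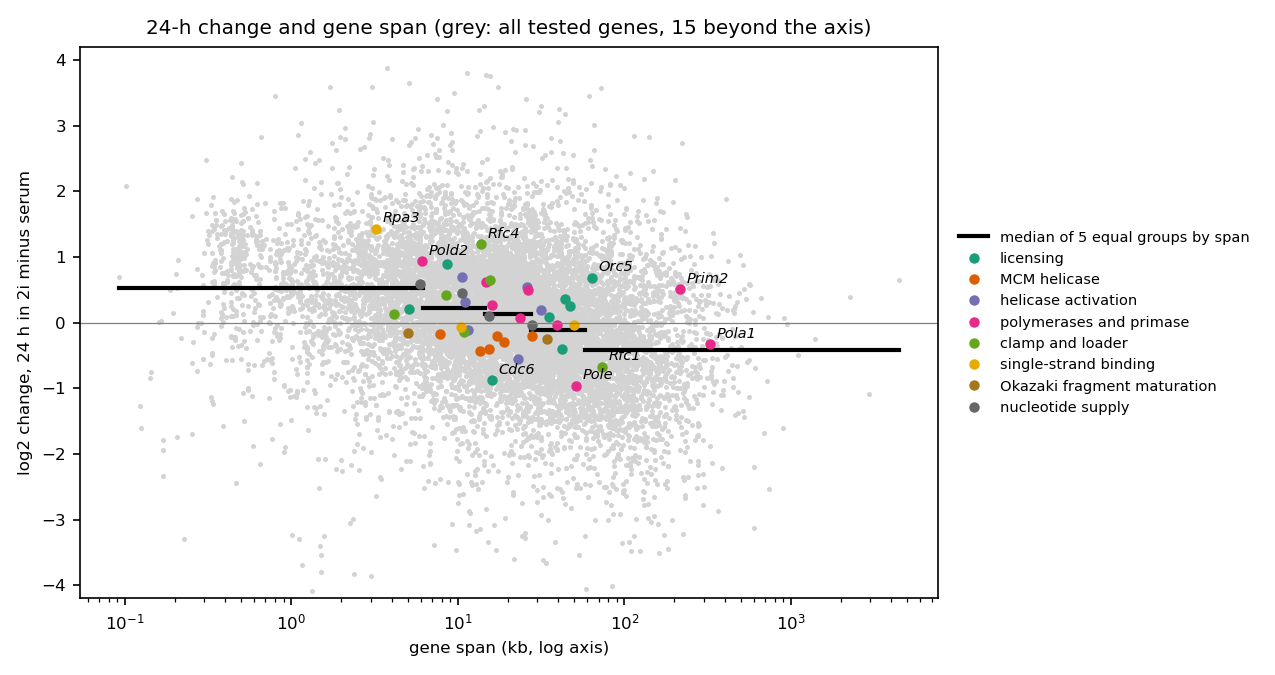
Log2 change at 24 h in 2i minus serum (vertical axis) against gene span in kb (horizontal log axis) for all 11376 tested genes in grey, of which 15 lie beyond the axis, and the 44 replication genes in colour by role. Black lines give the medians of 5 groups of genes with equal numbers by span, from 0.53 in the shortest to -0.41 in the longest, and Rpa3 lies at the short end while Pola1, Pole and Rfc1 lie toward the long end.

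Both Okazaki fragment genes were lower at 72 h, as were 25.8% of all tested genes. Lig1, the ligase that seals the fragments, had values of 5.21, 5.18 and 5.17 in serum, 4.67, 5.07 and 5.06 at 24 h and 4.80, 4.48 and 4.66 at 72 h. The 72-h libraries were far from serum relative to the spread of serum. The difference was -0.25 ± 0.13 at 24 h (limma, adjusted p = 0.099) and the change -0.54 ± 0.13 at 72 h (adjusted p = 0.0043). Fen1, the nuclease that trims the flaps between fragments, fell by 0.37 at 72 h, a call that was lost without serum replicate 1, serum replicate 2 or 72 h replicate 3. Once the span trend was removed Fen1 passed at 24 h too, going from -0.16 to -0.43 (adjusted p = 0.0043 by limma), while the 24-h value of Lig1 went from -0.25 to -0.05.

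The nucleotide supply genes contain the subunits of ribonucleotide reductase, which moved differently. Rrm2, the small subunit that is made in S phase, rose early, from 5.63, 5.64 and 5.53 in serum to 6.22, 6.24 and 6.13 at 6 h and 6.27, 6.27 and 6.02 at 24 h. At 72 h it read 5.90, 5.79 and 5.81. Every 2i library was above every serum library. The change was 0.60 ± 0.10 at 6 h (adjusted p = 0.0023 by limma), the largest of the 44 genes at that time and held in every fit that left out a library. It was 0.59 ± 0.10 at 24 h (adjusted p = 0.00054), and the difference of 0.23 at 72 h did not pass (adjusted p = 0.078). Without the span trend the 24-h change of this 5.91-kb gene was 0.34 and still passed.

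Rrm1, the large subunit, had values of 5.46, 5.43 and 5.24 in serum, 5.30, 5.45 and 5.27 at 24 h and 5.03, 4.88 and 4.86 at 72 h. It overlapped serum at 24 h and was below it at 72 h. The difference was -0.04 ± 0.11 at 24 h (limma, adjusted p = 0.79) and the change -0.45 ± 0.11 at 72 h (adjusted p = 0.0050). Tk1, of the thymidine salvage path, differed by 0.45 at both times and Tyms, of its new synthesis, by 0.10 and -0.16, none with a call. Tk1 lies within the span of Gm20708 on the opposite strand.

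Between 24 and 72 h the difference passed for 11 of 44 genes, all lower at 72 h, against 29.7% of all tested genes and 14.7% for lower calls. These were Orc3, Orc5, Cdt1, Mcm5, Mcm10, Gins2, Pold1, Pold2, Rfc4, Rrm1 and Rrm2. The largest was Rfc4 at -1.27 and the smallest p that of Pold1, -0.96 (adjusted p = 0.00027 by limma). The count moved with single libraries. It was 4 without 24 h replicate 2, 5 without 72 h replicate 3 and 19 without 24 h replicate 3. Lower calls over all tested genes were 8.83%, 9.96% and 30.6% in the same fits. In a fit of the 6 libraries alone only Pold1 passed. Orc5, Pold1 and Pold2 passed in every fit that left out a library. Of the 33 other genes 9 had values above 0, among them Pola1 (0.20), Mcm6 (0.19) and Cdc6 (0.15). Without the span trend 12 genes were lower and 0 higher, against 19.1% and 12.1% of all tested genes. Cdt1 (-0.31) and Rrm2 (-0.20) were then lost and Pold3 (-0.40), Rfc1 (-0.37) and Lig1 (-0.41) gained.

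Between 6 and 24 h, 22 of 44 genes differed, 8 higher and 14 lower, against 59.5% of all tested genes, of which 31.5% were higher and 28.1% lower. The 14 lower genes were 31.8% of the 44, a share near that of all tested genes. The falls held all but 2 of the MCM ring genes, Mcm3 and Mcm7. The count was 14 without 6 h replicate 3 or without 24 h replicate 1, against 47.5% and 48.5% of all tested genes in those fits. Lower genes included Cdc6 (-0.97), Pole (-1.12) and Rfc1 (-0.81), and higher ones Rpa3 (1.54), Rfc4 (1.11) and Pold2 (0.90). With the span trend removed 17 of the 22 held, 5 were lost, Orc1 (-0.11), Orc2 (-0.12), Pold3 (-0.01), Lig1 (-0.17) and Pola1, which turned from -0.52 to 0.06, and 6 were gained, Orc4 (0.79), Orc5 (0.86), Mcm3 (-0.28), Mcm7 (-0.38), Fen1 (-0.44) and Rrm2 (-0.29). Of those that held, the difference of Prim2 went from 0.45 to 1.04, that of Orc3 from 0.33 to 0.65 and that of Rfc1 from -0.81 to -0.31. In that fit 10 of the 44 genes were higher and 13 lower, against 33.7% and 24.4% of all tested genes.

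Other lists are read against all tested genes, of which 33.6% rose and 29% fell at 24 h and 24.5% rose and 25.8% fell at 72 h. Of 31 other replication factors tested, 7 rose and 13 fell at 24 h and 4 rose and 14 fell at 72 h, and the largest change at 24 h was that of Pold4, a small subunit of polymerase delta (1.97 ± 0.21, adjusted p = 1.9e-05 by limma). Of 7 genes of chromatin assembly at the fork, 1 rose and 3 fell at 24 h, with Chaf1b, a subunit of the histone chaperone CAF-1, at 1.04. Of 20 other nucleotide synthesis genes, 4 rose and 7 fell at 24 h and 4 rose and 6 fell at 72 h, with Nme2, a nucleoside diphosphate kinase, at 1.30 at 24 h.

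Regulators of S phase and genes of mitosis are given beside the same shares of all tested genes, 33.6% higher and 29% lower at 24 h and 24.5% and 25.8% at 72 h. Of 12 E2F and pocket protein genes tested, 3 rose and 7 fell at 24 h, and E2f8, which represses S-phase genes, changed by -2.25 ± 0.17 (adjusted p = 1.7e-06 by limma). Of 26 mitosis genes, 2 rose and 13 fell at 24 h and 19 fell at 72 h, with a median change of -0.67 at 72 h against -0.12 for the 44 replication genes. The proliferation marker Mki67 was at -1.76 at 24 h. Of 12 genes of the p53 response, 7 rose and 1 fell at 24 h, with the cyclin-dependent kinase inhibitor Cdkn1a at 2.30. Differences between these lists were not tested.

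Changes were found in genes with and without an E2F-type word. Of all tested genes 33.6% rose and 29% fell at 24 h (62.6% for either), and 24.5% rose and 25.8% fell at 72 h (50.3%). Of 15 holders, 1 rose and 3 fell at 24 h and 5 fell at 72 h, with median changes of -0.10 and -0.26. Of 22 matched genes without a word, 7 rose and 3 fell at 24 h and 1 rose and 6 fell at 72 h, with medians of 0.12 and -0.09.

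H3K9me2 was below the input over the spans of all 44 genes, and in long-term 2i it fell over 22 of them, a share near that of all genes. Bound and input values on the linear scale were averaged over the 2-kb bins in the gene span, and the log2 ratio of these means was taken. This ratio had a median over the 44 genes of -2.25 and -2.18 in the serum libraries, -2.24 and -2.27 at 24 h and -3.13 and -3.08 in LT2i. All 44 genes were below 0 in all 6 libraries, as were 93.7% of the 10526 genes tested in RNA-seq that had bins and 68.8% of all 21892 genes. The genes tested in RNA-seq had medians of -1.76 and -1.86 in serum and -2.89 and -2.90 in LT2i. At the starts, within 2 kb, the medians of the 44 genes were -3.38 and -3.30 in serum and -3.69 and -3.77 in LT2i. There 41 to 43 of the 44 genes were below 0, depending on the library. The start of Rrm1, with 2 bins, stood at 0.77 and 1.10 in serum, -0.35 and 0.15 at 24 h and 0.79 and 1.07 in LT2i.

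At 24 h 0 of 44 genes passed (limma), as did 0% of 21892 genes with bins, while 6 of the 44 and 3819 of all genes had an unadjusted p under 0.05. In LT2i 22 of 44 genes were lower and none was higher, against 47.8% of all genes lower and 4.52% higher (52.3% for either). The median difference was -0.65 for the 44 genes and -0.60 for all genes. Values were above 0, with no call, for Cdc6 (0.33), Mcm7 (0.28) and Orc2 (0.08). Mcm2 had the mark at -1.68 in serum and -3.37 in LT2i, a change of -1.69 ± 0.16 (adjusted p = 0.0025 by limma). Gins1 (-1.74) and Pold2 (-1.72) changed as much. There was no RNA-seq in LT2i. At 24 h, which both assays share, the mark differed from serum by 0.43 for Mcm2, 0.12 for Gins1 and 0.37 for Pold2, with no call. Pold2 RNA was higher at 24 and 72 h in 2i, Gins1 RNA was higher at 24 h and Mcm2 RNA was lower at both times. A link between the mark and RNA was not tested. The lowest bound value listed for a bin was 1.10 to 1.47 on the linear scale, so that over the input of a gene the ratio could not fall below -5.01 to -3.78 in serum. In serum 8 of the 44 genes lay within 1 log2 unit of that limit, and 0 of these passed in LT2i, against 22 of the 36 others. In LT2i 20 genes lay that close to it, Mcm2 and Gins1 among them, so that their falls could be understated. Rfc4, at -3.85 in serum and -3.86 in LT2i, was within 1 unit of its limit in both, and a further fall could hardly have been measured. Over bins at the gene starts 1 of 44 genes passed in LT2i, Mcm6 at -1.53 (adjusted p = 0.026 by limma), against 10.5% of 23474 genes with such bins. The start of Mcm6 held only 1 bin. Each condition had a single input, whose error is not in these p-values, every listed bin had an input of at least 8, and scaling to library size hides a change common to the whole genome.

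**Figure D5:**
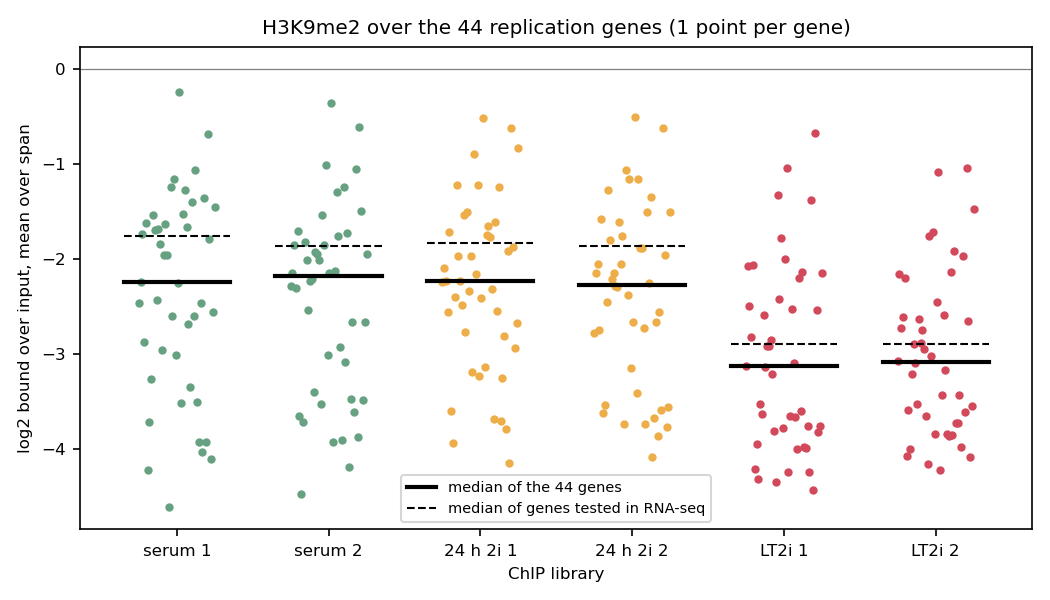
H3K9me2 over the 44 replication genes (1 point per gene) in each of the 6 bound libraries, as the log2 ratio of the mean bound to the mean input value over the gene span (vertical axis). Solid lines are medians of the 44 genes and dashed lines medians of genes tested in RNA-seq, and both lie lower in the LT2i libraries, at -3.13 and -3.08 for the replication genes.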

How the data were processed

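RNA-seq libraries were made by the submitters with a TruSeq kit that does not mark strand. Trim Galore 0.3.5, TopHat2 2.0.11, Bowtie2 and the builds GRCm38 and NCBIM37 are named in the submitters' processing notes, with no role given there. The paper gives NCBIM37 as the build for its list of regions with CpG methylation. ChIP-seq bins were matched to gene spans by their listed positions, which takes both to be on the same build. For each gene the authors deposited log2 values corrected for length and depth, and for ChIP-seq log2 values per 2-kb bin scaled to library size. The depth of the RNA-seq libraries is unknown, so no count model was run.

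Groups and replicate numbers came from the labels, which do not say whether replicates were separate cultures, so p-values measure the spread between these samples. The 44 genes and all comparison lists were chosen with earlier results of these data known. Genes with a mean of at least 0 were kept. Changes were fitted with limma 3.58.1 in R 4.3.3 over all 12 libraries, with Benjamini-Hochberg adjustment and a threshold of 0.05. The ChIP ratio was fitted in the same way over 6 bound libraries after subtraction of the input. Both fits were tested on simulated data. Full values were given, in each role, for the gene with the largest absolute change at 6, 24 and 72 h. Other members were named with their change, and each other list by its largest change at 24 h. Per-library values of Pold1 and Pold2 and the ChIP genes were added after their values were seen. Bisulfite files were left out because their positions are on NCBIM37.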

Additional observations from a re-analysis of the deposited data

Results flagged for a closer look

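The changes against serum at neighbouring time points were compared directly, and a difference between them that passed limma's test (adjusted p under 0.05) is listed here. Of all tested genes 31.5% were higher and 28.1% lower at 24 h than at 6 h. Between 24 and 72 h 15% were higher and 14.7% lower at 72 h. Between 6 and 24 h the change was greater at 24 h for 8 genes, Rpa3 (1.54), Rfc4 (1.11), Pold2 (0.90), Orc6 (0.76), Prim1 (0.64), Gins1 (0.49), Prim2 (0.45) and Orc3 (0.33) on the log2 scale. It was smaller or more negative at 24 h for 14 genes, Pole (-1.12), Cdc6 (-0.97), Rfc1 (-0.81), Mcm10 (-0.64), Mcm4 (-0.61), Pola1 (-0.52), Mcm6 (-0.48), Mcm2 (-0.48), Orc2 (-0.42), Gins3 (-0.40), Lig1 (-0.39), Orc1 (-0.33), Mcm5 (-0.30) and Pold3 (-0.28).

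Between 24 and 72 h the change was lower at 72 h for 11 genes, Rfc4 (-1.27), Pold1 (-0.96), Orc5 (-0.76), Gins2 (-0.73), Pold2 (-0.59), Cdt1 (-0.47), Orc3 (-0.42), Rrm1 (-0.42), Mcm5 (-0.38), Rrm2 (-0.35) and Mcm10 (-0.30). Each pair of time points shares the serum libraries, which cancel in the difference but enter the spread behind its p-value. Mcm5 and Mcm10 differed in the same direction in both steps, and Orc3, Pold2 and Rfc4 were higher at 24 h than at both 6 and 72 h. Of these genes only Pold2 passed in both steps in every fit that left out a library. The later step of Mcm10 was lost when any single library other than 24 h replicate 1 was left out. For Mcm5 the later step was lost without 24 h replicate 2 or 72 h replicate 3. Its earlier step was lost without any 6 h replicate, 24 h replicate 1 or 24 h replicate 3. In Rfc4 and Rpa3 the 24-h level rested mostly on replicates 1 and 2, with replicate 3 at 4.38 and 4.09. With the span trend removed, 5 of the 22 differences between 6 and 24 h no longer passed, those of Orc1 (-0.11), Orc2 (-0.12), Pold3 (-0.01), Lig1 (-0.17) and Pola1, which became 0.06. Between 24 and 72 h those of Cdt1 (-0.31) and Rrm2 (-0.20) no longer passed.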

How the results depend on the processing

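Across 57 changes of the genes with full values and 1254 values under alternatives, 1180 kept direction and side of the threshold, 31 were no longer past it, 20 passed it newly and 23 changed sign, each of the last from a value within 0.11 of 0 that had not passed. Without the span trend the values that changed sign were Pold3 (0.24), Rpa1 (0.33) and Rrm1 (0.079) at 24 h and Mcm6 at 72 h (0.018). Without the third library of every group, an alternative chosen after seeing the data, they were Rpa1 at 24 h (0.095) and Mcm6 (0.055), Gins2 (0.0021) and Rfc4 (0.040) at 72 h. With single libraries left out, the ranges that crossed 0 were those of Mcm5 (-0.0033 to 0.027) and Rpa3 (-0.23 to 0.074) at 6 h, Orc1 (-0.0034 to 0.15), Rpa1 (-0.13 to 0.11) and Rrm1 (-0.10 to 0.0056) at 24 h, and Mcm6 (-0.082 to 0.026), Gins2 (-0.28 to 0.10) and Rfc4 (-0.29 to 0.13) at 72 h.

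Counts that moved by over 1.5 times are given by setting, as members called unless all genes are named. A member count given without its share of all tested genes is not read as a result particular to the members. Quantile normalization gave 6 for 72 against 24 h, all lower. Setting library medians equal gave 4 higher at 72 h. Without the filter 1 was higher at 6 h and 1 at 72 h, and a mean of 2 or more left fewer genes to test, with 871 of all genes called at 6 h, 3796 at 72 h and 2092 for 72 against 24 h. Without the span trend 1 was higher at 6 h (9.96% of all genes). Fits of the 6 libraries compared gave 5 higher at 6 h (3197 of all genes), 1 lower for 72 against 24 h (1154 of all genes) and 14 for 24 against 6 h, 5 higher and 9 lower. A change of at least 1 left 0 at 6 h (464 of all genes), 2 higher and 0 lower at 24 h (2848 of all genes), 0 higher and 0 lower at 72 h (2036 of all genes), 1 lower for 72 against 24 h (840 of all genes) and 3 for 24 against 6 h, 2 higher and 1 lower (2310 of all genes). Without the third library of every group 5 were higher at 72 h (28.6% of all genes) and 15 were higher for 24 against 6 h (38%). In that fit 19 were lower for 72 against 24 h (26.1% of all genes, with 5274 called in either direction). The causes were not tested where the construction of the alternative does not show them. Over H3K9me2 bins at gene starts 1 was called in LT2i, against 10.5% of all genes.

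Leaving out each library gave ranges of 1 to 2 calls at 6 h, all higher (1030 to 2120 of all genes), 15 to 26 at 24 h, of which 9 to 19 were higher and 5 to 8 lower, and 11 to 22 at 72 h, of which 1 to 6 were higher. It gave 4 to 19 for 72 against 24 h, all lower (1984 to 6175 of all genes), and 14 to 26 for 24 against 6 h, with 4 to 15 higher and 9 to 13 lower. Over the same fits 53.1% to 71.6% of all tested genes were called at 24 h, 27.3% to 39.8% higher and 25.4% to 31.8% lower. At 72 h 42.4% to 57.9% were called, 20.7% to 28.5% higher, and for 24 against 6 h 47.5% to 70.5%. With the replicate block, which pairs libraries by number, 25 were called at 24 h (70.6% of all genes), with Orc2, Gins4, Pole2, Rfc3 and Tk1 added. At 72 h 24 were called (59.4%), 6 of them higher (29.4%), with Mcm3, Mcm7, Pold3, Pole, Pole2, Rfc5, Rpa2, Rpa3, Rrm2 and Tk1 added. For 24 against 6 h 15 were higher (37%), and 5212 of all genes were called for 72 against 24 h. Deviations of same-numbered libraries correlated above 0.1 in 15 of 18 pairs (-0.32 to 0.85), with the 6 pairs of replicates numbered 3 at 0.47 to 0.85, and 8 of 12 libraries were closest to their own number. The labels name nothing that a number shares, the other pairs were at or under 0.1, and the numbers were not taken as pairing in the main fits. Libraries numbered 3 did deviate together, and that shared part stays in the spread behind the p-values of those fits.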
